A study of Mus musculus with 12 samples.

Results

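The genes described here are the drug-metabolizing cytochromes P450 of the Cyp1, Cyp2 and Cyp3 families, measured in whole liver of mouse pups on postnatal day 2 (P2). A list of 51 gene symbols was taken, and 45 of them were measured by a probe set that named that gene alone, out of 19938 genes measured in this way on the array. Of the other members, *Cyp2a4*, *Cyp2a5*, *Cyp2c40*, *Cyp3a41a* and *Cyp3a59* were read only by probe sets shared with relatives, and *Cyp2c44* is an older symbol for *Cyp2c23*, whose own probe set is given below. The liver transcriptome of 12 pups was profiled on Affymetrix Mouse Gene 1.0 ST arrays, 1 array per pup. There were 6 *Ppara*-/- pups and 6 *Ppara*+/+ pups, each genotype with 3 males and 3 females. Pups of both genotypes came from matings of heterozygous parents, were suckling when killed, and no treatment is stated. The strain is given as SV129 in the sample labels and as a C57BL/6 background in the study's methods. The deletion is present in every cell of the animal, RNA came from 3 litters per genotype, and the litter of each pup is not given in the labels, so p-values measure the spread between these pups. Values are log2 signals after robust multi-array averaging (RMA), and a difference of 1 on this scale is a doubling.

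Cytochromes P450 are haem-containing monooxygenases of the endoplasmic reticulum that take electrons from NADPH through P450 oxidoreductase and insert an oxygen atom into drugs, steroids, bile acids or fatty acids. In the liver, *Cyp1* genes are classical targets of the aryl hydrocarbon receptor, *Cyp2b* genes of the constitutive androstane receptor and *Cyp3a* genes of the pregnane X receptor, and many *Cyp2* and *Cyp3* genes differ between adult male and female mice. PPARα, the nuclear receptor encoded by *Ppara*, is best known for its control of the Cyp4 family, which hydroxylates fatty acids. The comparison asked which of the drug-metabolizing families depended on PPARα in the suckling liver.

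The disrupted gene was lower in every *Ppara*-/- pup: *Ppara* read 10.21, 10.27 and 10.33 (lowest, median and highest log2 signal) in *Ppara*-/- livers against 10.98, 11.21 and 11.27 in *Ppara*+/+ livers, a difference of -0.89 ± 0.0488 (SE; limma, adjusted p = 1.2e-06). The 12 arrays had medians between 7.16 and 7.20 and correlated with each other at 0.989 to 0.996 across probe sets. The array of the female *Ppara*+/+ replicate 7 received the lowest weight of the 12, at 0.42, when limma weighted arrays by their fit. A signal remained in the *Ppara*-/- livers, and no source used here gives the position of the probes relative to the deleted part. Among the members, 17 of 45 had a mean signal below the median of every array, including all 5 *Cyp2b* genes and 6 of the 12 *Cyp2c* genes. Of 6 hepatocyte markers, none passed the test by limma (1 higher at an unadjusted p under 0.05, 2 by an exact Mann-Whitney test), with *Alb* at a mean of 14.24 in both. Over all 19938 genes, 7.89% were lower and 9.27% higher at an unadjusted limma p under 0.05, and 7.58% and 9.28% by exact Mann-Whitney tests, which is the background for each unadjusted count given here.

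Of the 45 measured members, 3 fell and 4 rose in *Ppara*-/- liver (limma with sex in the model, Benjamini-Hochberg adjusted p under 0.05 over all 35556 probe sets). The 3 that fell were *Cyp2a22*, *Cyp2c70* and *Cyp2d13*, and the 4 that rose were *Cyp2c50*, *Cyp2c37*, *Cyp2u1* and *Cyp2d9*. Over all measured genes, 1.12% fell and 1.99% rose by the same rule, against 6.67% and 8.89% of the members. The members were chosen with earlier results of these data known, so these shares are a description and not a test. The median difference of the 45 members was 0.04, against -0.01 over all genes. With a change above 1.3-fold asked for as well, the same 3 fell (0.567% of all genes) and only *Cyp2c50* rose (0.707% of all genes). In each of the 7 genes the 6 *Ppara*-/- livers did not overlap the 6 *Ppara*+/+ livers. Together with *Cyp3a25*, 3 members were lower in all 6 *Ppara*-/- livers than in all 6 *Ppara*+/+ livers (1.43% of all genes) and 5 were higher (2.88% of all genes). In bulk liver, fewer cells of a type and less RNA per cell cannot be told apart.

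**Figure D1:**
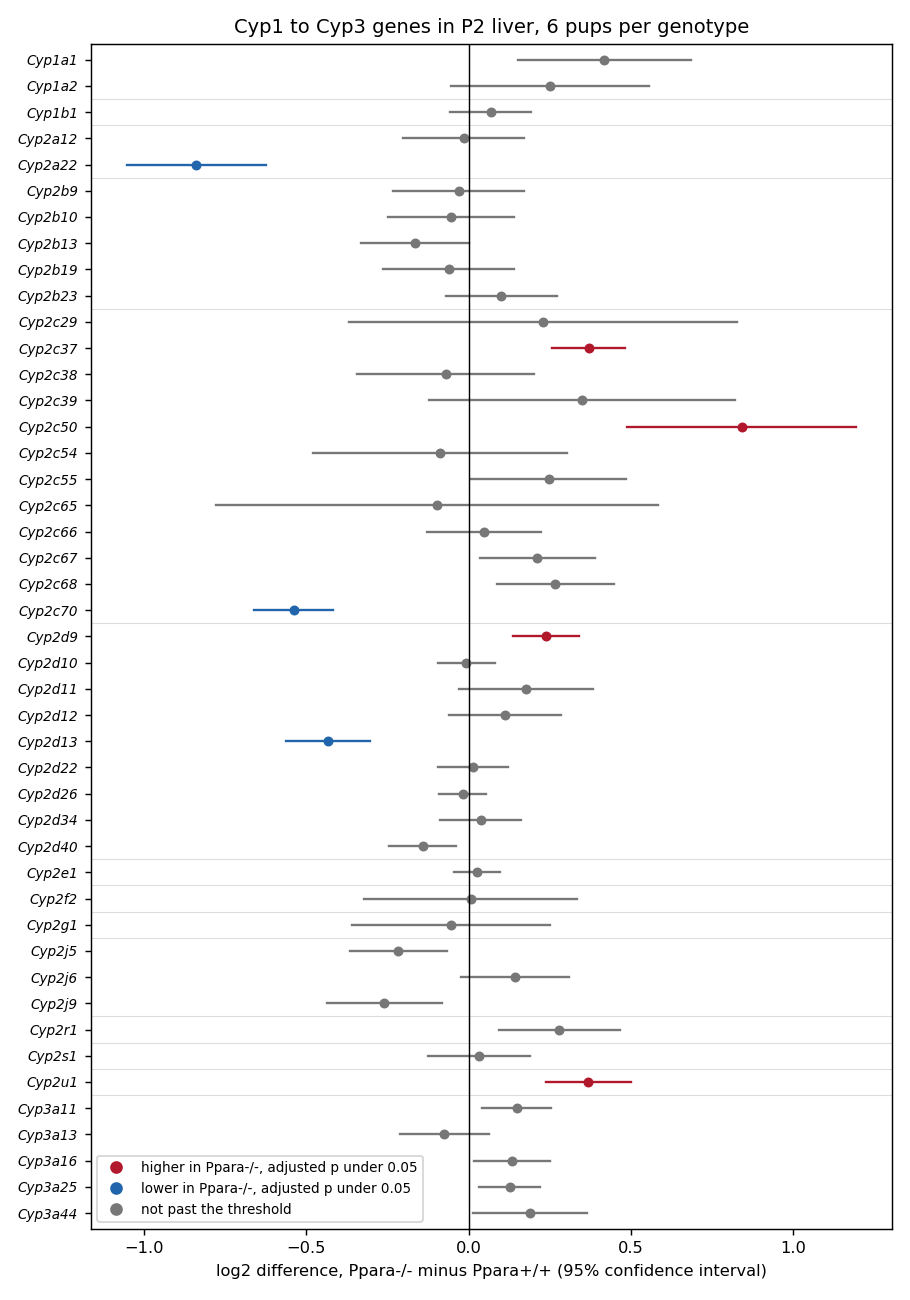
Log2 difference between 6 *Ppara*-/- and 6 *Ppara*+/+ livers (x axis) for each of the 45 measured genes (y axis, ordered by subfamily), with points for the estimate and lines for the 95% confidence interval. *Cyp2a22* at -0.84 and *Cyp2c50* at 0.84 lie farthest out, 3 genes are blue (fell), 4 are red (rose), and the grey genes did not pass the test.

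**Figure D2:**
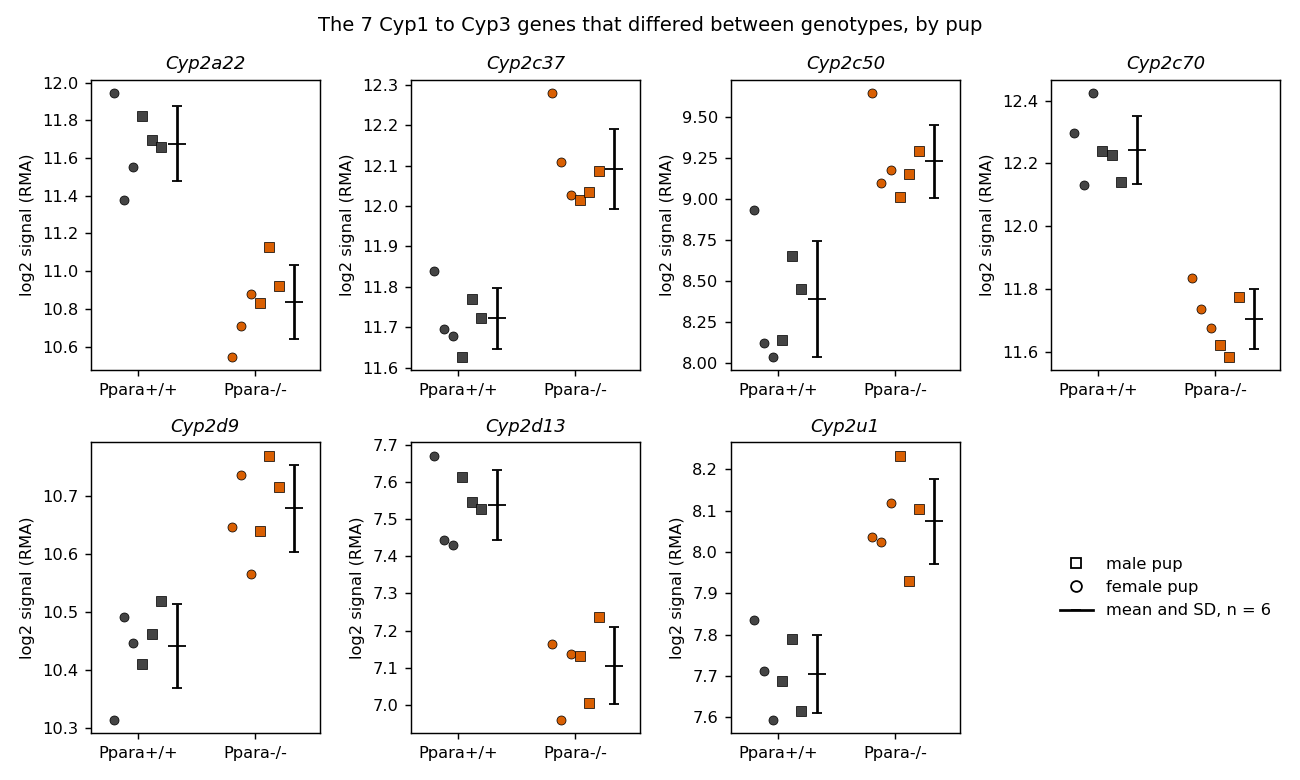
Log2 RMA signal of each pup (y axis) for the 7 genes that passed the test, by genotype (x axis), with squares for males, circles for females and bars for the mean and SD of 6 pups. The y axes differ between panels and do not start at 0. In every panel the groups do not overlap, and the nearest pair of pups is in *Cyp2d9*, at 10.52 and 10.57.

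The Cyp1a pair, which oxidizes planar aromatic compounds, was not called in either direction. *Cyp1a1*, the most inducible aryl hydrocarbon receptor target, read 5.85, 6.48 and 6.65 in *Ppara*+/+ livers and 6.60, 6.80 and 7.001 in *Ppara*-/- livers, a difference of 0.42 ± 0.122 (adjusted p = 0.119). It was dim, with a mean of 6.60 that lay below the median of every array. *Cyp1a2*, which oxidizes caffeine and arylamines and is constitutive in liver, read 10.35, 10.91 and 11.28 against 10.99, 11.11 and 11.29, a difference of 0.25 ± 0.139 (adjusted p = 0.439). The lowest *Cyp1a1* value was that of the female *Ppara*+/+ replicate 7, the array with the lowest weight, and the other pups of that genotype read 6.24 or above. *Cyp1b1*, which acts mainly outside the liver, was dim at 5.10, 5.26 and 5.36 against 5.23, 5.32 and 5.49, a difference of 0.07 ± 0.0574 (adjusted p = 0.643).

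*Cyp2a22* was the member that fell most. It read 11.38, 11.68 and 11.94 in *Ppara*+/+ livers and 10.55, 10.86 and 11.13 in *Ppara*-/- livers, so that every *Ppara*-/- pup was below every *Ppara*+/+ pup. The difference was -0.84 ± 0.0976, or 1.79-fold lower (adjusted p = 0.000692). Its relative *Cyp2a12*, a steroid hydroxylase, read 11.78, 11.94 and 12.28 against 11.78, 11.94 and 12.14, a difference of -0.02 ± 0.0853 with a 95% confidence interval of -0.20 to 0.17 (adjusted p = 0.96). The 2 genes are neighbours on chromosome 7, with a pseudogene, *Cyp2a21-ps*, between them. *Cyp2a5*, the coumarin hydroxylase, and *Cyp2a4*, a steroid hydroxylase, share a probe set, which differed by -0.12 ± 0.0544 (adjusted p = 0.353).

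None of the 5 *Cyp2b* genes, the subfamily induced by phenobarbital through the constitutive androstane receptor, passed the test, and their differences ran from -0.17 to 0.10. All 5 were dim on this array. *Cyp2b13* read 3.55, 3.80 and 3.97 in *Ppara*+/+ livers and 3.44, 3.63 and 3.75 in *Ppara*-/- livers (-0.17 ± 0.0762, adjusted p = 0.335). *Cyp2b23* read 5.59, 5.87 and 6.00 against 5.78, 5.90 and 6.19 (0.10 ± 0.0779, adjusted p = 0.608). *Cyp2b10*, the member most used as a readout of phenobarbital induction, differed by -0.06 with a 95% confidence interval of -0.25 to 0.14.

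The *Cyp2c* genes moved in both directions. Many enzymes of this subfamily turn arachidonic acid into epoxides or hydroxy acids, and *Cyp2c70* makes the muricholic acids that set mouse bile apart from human bile. *Cyp2c70* read 12.13, 12.23 and 12.42 in *Ppara*+/+ livers and 11.58, 11.71 and 11.83 in *Ppara*-/- livers, a drop without overlap of -0.54 ± 0.0561, or 1.45-fold lower (adjusted p = 0.00031). *Cyp2c50* read 8.04, 8.29 and 8.93 in *Ppara*+/+ livers and 9.01, 9.16 and 9.64 in *Ppara*-/- livers, a rise of 0.84 ± 0.161, or 1.79-fold (adjusted p = 0.018). The gap between the groups was small beside the rise: the highest *Ppara*+/+ pup, the female replicate 7, was only just below the lowest *Ppara*-/- pup. Without replicate 7, whose array had the lowest weight, the rise was 0.96 (limma, adjusted p = 0.00422). Without the male *Ppara*+/+ replicate 1 it was 0.79 and no longer called (limma, adjusted p = 0.0506). *Cyp2c37* read 11.63, 11.71 and 11.84 against 12.02, 12.06 and 12.28, a rise of 0.37 ± 0.0515 or 1.29-fold (adjusted p = 0.00237). Its pups varied less around their group means than those of *Cyp2c50*, with SDs of 0.07 and 0.10 against 0.35 and 0.22. The *Ppara*-/- female replicate 10 gave the highest value of both *Cyp2c37* and *Cyp2c50*, and cross-hybridisation between these relatives was not tested.

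The other 9 *Cyp2c* genes did not pass the test, with differences from -0.10 for *Cyp2c65* to 0.35 for *Cyp2c39*. *Cyp2c67* and *Cyp2c68*, neighbours in the cluster, differed by 0.21 (adjusted p = 0.243) and 0.27 (adjusted p = 0.143). In both, the same male *Ppara*-/- pup, replicate 5, was far above the rest. *Cyp2c54*, which lies directly between *Cyp2c37* and *Cyp2c50*, read 7.91, 8.48 and 9.03 in *Ppara*+/+ livers and 8.25, 8.34 and 8.90 in *Ppara*-/- livers, a difference of -0.09 ± 0.179 with a 95% confidence interval of -0.48 to 0.30. *Cyp2c39*, a retinoic acid hydroxylase, read 6.58, 6.97 and 7.28 against 6.78, 7.12 and 8.09, and its interval of -0.12 to 0.82 includes a change as large as that of *Cyp2c37*. The estimates for *Cyp2c29* and *Cyp2c65* were the least precise of the members, with SEs of 0.272 and 0.311, and each had 1 pup far above the others. *Cyp2c23* (the *Cyp2c44* of older lists), an arachidonic acid epoxygenase, had a mean of 12.76 and differed by less than its SE of 0.0556 (adjusted p = 0.999). A probe set shared by *Cyp2c40*, *Cyp2c67*, *Cyp2c68* and *Cyp2c69* differed by 0.10 ± 0.0473 (adjusted p = 0.358).

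The 3 called *Cyp2c* genes lie at one end of the cluster on chromosome 19, in the order *Cyp2c37*, *Cyp2c54*, *Cyp2c50* and *Cyp2c70*, with the uncalled *Cyp2c54* as the one annotated gene between them. The 250 bases before the start sites of the genes that rose and of the one that fell are printed here because these neighbours moved in opposite directions (RefSeq, GRCm38.p6, 5′ to 3′ on each gene's own strand). Capitals mark matches on either strand to the nuclear receptor half-site AGGNCA, the CCAAT box, the TATA box TATAAA and the HNF4 core CAAAGTCCA.
Cyp2c37 promoter (chr19:39992174-39992423, plus strand): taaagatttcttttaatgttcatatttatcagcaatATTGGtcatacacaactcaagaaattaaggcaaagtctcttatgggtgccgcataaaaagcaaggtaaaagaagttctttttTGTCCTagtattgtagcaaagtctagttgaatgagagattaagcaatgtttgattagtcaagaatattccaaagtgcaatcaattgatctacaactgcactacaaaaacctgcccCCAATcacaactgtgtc
Cyp2c50 promoter (chr19:40089429-40089678, plus strand): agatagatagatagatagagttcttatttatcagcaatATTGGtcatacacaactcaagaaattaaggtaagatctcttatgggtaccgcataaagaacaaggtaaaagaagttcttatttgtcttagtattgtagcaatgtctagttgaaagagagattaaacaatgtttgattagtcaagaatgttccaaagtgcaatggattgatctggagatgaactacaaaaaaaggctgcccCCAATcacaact
Cyp2c70 promoter (chr19:40187287-40187536, minus strand): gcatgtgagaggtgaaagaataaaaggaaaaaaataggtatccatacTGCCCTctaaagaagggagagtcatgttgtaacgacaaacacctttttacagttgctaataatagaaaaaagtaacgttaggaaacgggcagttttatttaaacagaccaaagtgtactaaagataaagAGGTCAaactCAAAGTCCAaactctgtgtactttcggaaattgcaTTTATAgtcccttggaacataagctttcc
The *Cyp2c37* and *Cyp2c50* sequences were identical at 88.4% of 242 aligned bases. Against *Cyp2c70*, *Cyp2c37* was identical at 71.6% of 169 aligned bases and *Cyp2c50* at 70.5% of 112. No promoter was found for *Cyp2c54*. The *Cyp2c37* and *Cyp2c50* windows both hold a CCAAT match on each strand. The *Cyp2c37* window holds an AGGNCA match at -132, counted from the start site, that is not in the *Cyp2c50* window. The *Cyp2c70* window, read from the opposite strand of the chromosome, holds AGGNCA matches at -203 and -74, the HNF4 core at -64 and a TATAAA match at -29. A match is a description of these letters and was not tested as a binding site.

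Promoters of this kind were found for 38 of the 45 measured members and for 5 of the 7 called ones, with none for *Cyp2d13* and *Cyp2u1*. The half-site AGGNCA was in 27 of the 38, against 51.3% of all 32851 promoters, and TATAAA was in 21, against 12.4%. The HNF4 core was in 6 (*Cyp2c65*, *Cyp2c67*, *Cyp2c68*, *Cyp2c70*, *Cyp3a11* and *Cyp3a16*), against 0.384% of all promoters, and of these only *Cyp2c70* was called. A direct repeat of AGGNCA spaced by 1 base, the form that PPARα binds with RXR, was in 3 (*Cyp2d9*, *Cyp2d10* and *Cyp2d40*), against 0.338%. Of those 3, *Cyp2d9* rose and the others were not called. The core of the aryl hydrocarbon receptor site, GCGTG, was in 5 members, *Cyp1a1* and *Cyp1b1* among them, against 28.2% of all promoters. CCAAT was in 15 members (33.9% of all promoters), the FOXA core TGTTTAC in 6 (3.17%), the HNF1 half-site GTTAAT in 2 (6.43%) and the STAT5 core TTCNNNGAA in 0 (7.02%). All motifs were searched on both strands of the 250 bases, AGGNCA matches include those within direct repeats, and related promoters in 1 cluster share sequence by descent.

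**Figure D3:**
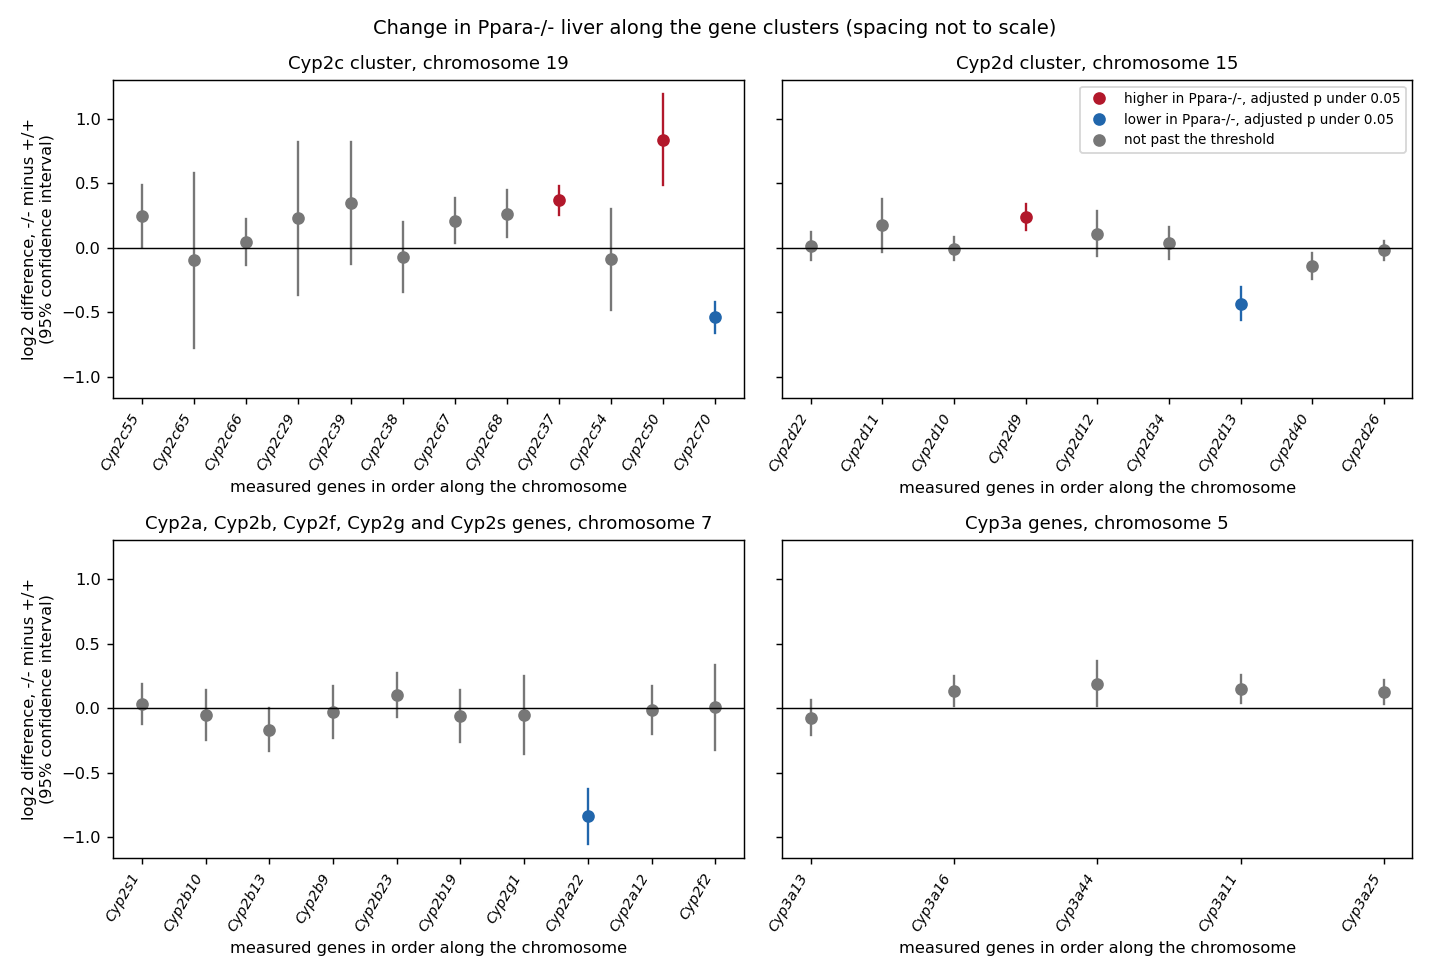
Log2 difference between genotypes (y axis, point and 95% confidence interval) for measured genes in their order along chromosomes 19, 15, 7 and 5 (x axis, spacing not to scale). In the *Cyp2c* panel, *Cyp2c37* (0.37), *Cyp2c54* (-0.09), *Cyp2c50* (0.84) and *Cyp2c70* (-0.54) stand next to each other, and in the chromosome 7 panel, which leaves out *Cyp2r1* and *Cyp2e1*, *Cyp2a22* (-0.84) is the one gene whose interval does not include 0.

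Among the 9 *Cyp2d* genes, 1 fell and 1 rose. *Cyp2d13*, annotated by RefSeq as a transcribed pseudogene, read 7.43, 7.54 and 7.67 in *Ppara*+/+ livers and 6.96, 7.13 and 7.24 in *Ppara*-/- livers, a drop of -0.43 ± 0.0585, or 1.35-fold lower (adjusted p = 0.00198). *Cyp2d9*, a testosterone hydroxylase with higher expression in adult males, read 10.31, 10.45 and 10.52 against 10.57, 10.68 and 10.77, a rise of 0.24 ± 0.046 or 1.18-fold (adjusted p = 0.0187). The 2 groups were separated in both genes, by a narrow margin in *Cyp2d9*. The other 7 differed by -0.14 (*Cyp2d40*, adjusted p = 0.17) to 0.18 (*Cyp2d11*, adjusted p = 0.421). *Cyp2d26*, at a mean of 13.74, and *Cyp2d10*, at 10.15, had narrow intervals around 0, of -0.09 to 0.05 and -0.10 to 0.08. The mean of *Cyp2d26* had a percentile rank of 99.7 among all probe sets, and compression of differences at such signals was not tested. A second pseudogene of the cluster, *Cyp2d37-ps*, which was not on the list and is named after its value was seen, differed by -0.32 ± 0.0642 (adjusted p = 0.0235), with overlapping groups.

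The small Cyp2 subfamilies held 1 more called gene. *Cyp2u1*, a hydroxylase of long-chain fatty acids, read 7.59, 7.70 and 7.83 in *Ppara*+/+ livers and 7.93, 8.07 and 8.23 in *Ppara*-/- livers, a rise without overlap of 0.37 ± 0.0599 or 1.29-fold (adjusted p = 0.00663). *Cyp2r1*, the hepatic vitamin D hydroxylase, read 7.12, 7.37 and 7.57 against 7.40, 7.69 and 7.84, a difference of 0.28 ± 0.0848 that did not pass (adjusted p = 0.137). *Cyp2e1*, which oxidizes ethanol and ketones, read 13.68, 13.73 and 13.77 against 13.72, 13.76 and 13.80. Its difference of 0.02 ± 0.0322 had a 95% confidence interval of -0.05 to 0.10, so a change of the size seen in *Cyp2d9* lies outside it (adjusted p = 0.783). The mean of *Cyp2e1* had a percentile rank of 99.7 among all probe sets, and compression of differences at such signals was not tested. *Cyp2f2*, which bioactivates naphthalene, read 11.08, 11.32 and 12.04 against 11.28, 11.40 and 11.58 (0.01 ± 0.15, adjusted p = 0.991). Its highest value was that of the female *Ppara*+/+ replicate 7, and the other pups of that genotype read at most 11.55. *Cyp2s1* read 7.24, 7.34 and 7.47 against 7.10, 7.38 and 7.57 (0.03 ± 0.0716, adjusted p = 0.885). *Cyp2g1*, known from the olfactory mucosa, read 4.91, 5.20 and 5.58 against 5.002, 5.09 and 5.57 (-0.05 ± 0.139, adjusted p = 0.903).

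The 3 *Cyp2j* genes, which encode epoxygenases of arachidonic acid, did not pass the test. *Cyp2j9* read 7.77, 7.99 and 8.23 in *Ppara*+/+ livers and 7.54, 7.73 and 8.00 in *Ppara*-/- livers (-0.26 ± 0.0813, adjusted p = 0.151). *Cyp2j5* read 11.05, 11.16 and 11.40 against 10.91, 10.99 and 11.11 (-0.22 ± 0.0681, adjusted p = 0.151). Their values overlapped between genotypes, and *Cyp2j6*, next to *Cyp2j9* on chromosome 4, differed by 0.14 (adjusted p = 0.414).

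The Cyp3a genes encode the enzymes with the widest range of drug substrates and are induced through the pregnane X receptor, and none of the 5 measured alone passed the test. *Cyp3a11*, the main form in adult liver, read 12.30, 12.39 and 12.54 in *Ppara*+/+ livers and 12.48, 12.55 and 12.68 in *Ppara*-/- livers (0.15 ± 0.0489, adjusted p = 0.177). *Cyp3a44*, which is higher in adult females, read 10.95, 11.09 and 11.22 against 11.14, 11.23 and 11.63 (0.19 ± 0.0802, adjusted p = 0.299). *Cyp3a16*, a form of the perinatal liver, differed by 0.13 (adjusted p = 0.269), and *Cyp3a13* by -0.07 (adjusted p = 0.638). *Cyp3a25* read 12.16, 12.36 and 12.40 against 12.40, 12.48 and 12.48, so that the groups did not overlap although the difference was 0.13 ± 0.0432 (adjusted p = 0.19). The probe set shared by *Cyp3a59*, *Cyp3a57* and *Cyp3a25* read 10.82, 10.99 and 11.11 in *Ppara*+/+ livers and 11.23, 11.26 and 11.53 in *Ppara*-/- livers, a rise of 0.33 ± 0.0679, or 1.26-fold (adjusted p = 0.0265). Which of the 3 genes gave that signal cannot be told from it. On its own probe set *Cyp3a57* was dim, with a mean of 4.60, and differed by 0.20 ± 0.0983 (adjusted p = 0.362). The 2 probe sets that include *Cyp3a41a* differed by 0.07 and 0.06 (adjusted p = 0.531 for each).

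By limma no member passed the test between females and males at P2, against 0.0401% of all genes. At an unadjusted p under 0.05 there were 2, *Cyp2c67* (female minus male -0.18, p = 0.0437) and *Cyp2d12* (-0.17, p = 0.0473), and by exact Mann-Whitney tests 0, against 2.78% and 2.3% of all genes. All 5 *Cyp3a* genes and 8 of the 9 *Cyp2d* genes had a higher mean in males, by at most 0.08 and 0.17. The 95% confidence interval of the sex difference was -0.15 to 0.05 for *Cyp2d9* and -0.26 to 0.09 for *Cyp3a44*, both of which differ strongly between the sexes in adult liver. The interaction of genotype with sex passed the threshold in no gene by limma (0% of all genes). At an unadjusted p under 0.05 by limma it did in 1 member, *Cyp2b9*, which was dim (interaction 0.36 on the log2 scale), against 1.79% of all genes.

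In the 7 called genes the groups did not overlap, which by itself gives males and females the same direction, so only the sizes within each sex are described here. *Cyp2a22* differed by -0.76 ± 0.141 in males and -0.91 ± 0.141 in females, *Cyp2c70* by -0.54 ± 0.0834 and -0.54 ± 0.0834, and *Cyp2d13* by -0.44 ± 0.0869 and -0.43 ± 0.0869. *Cyp2c50* differed by 0.74 ± 0.234 and 0.94 ± 0.234, and *Cyp2c37* by 0.34 ± 0.0754 and 0.40 ± 0.0754. *Cyp2u1* differed by 0.39 and 0.35, and *Cyp2d9* by 0.24 and 0.23. Of all 45 members, 33 had the same sign in both sexes, against 13221 of 19938 genes over the whole array (66.3%). The 33 include the 7 called genes and *Cyp3a25*, whose groups did not overlap and whose sign was therefore fixed. The count is thus not a test of likeness between the sexes. *Cyp2c65* (-0.54 in males, 0.35 in females) and *Cyp2c54* (-0.36 and 0.18) had the largest differences of opposite sign, and neither interaction passed. The male value of *Cyp2c65* rests on the *Ppara*+/+ male replicate 1 at 5.68, the other pups of that genotype reaching 3.95, and without it the pooled difference was 0.23 instead of -0.10.

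**Figure D4:**
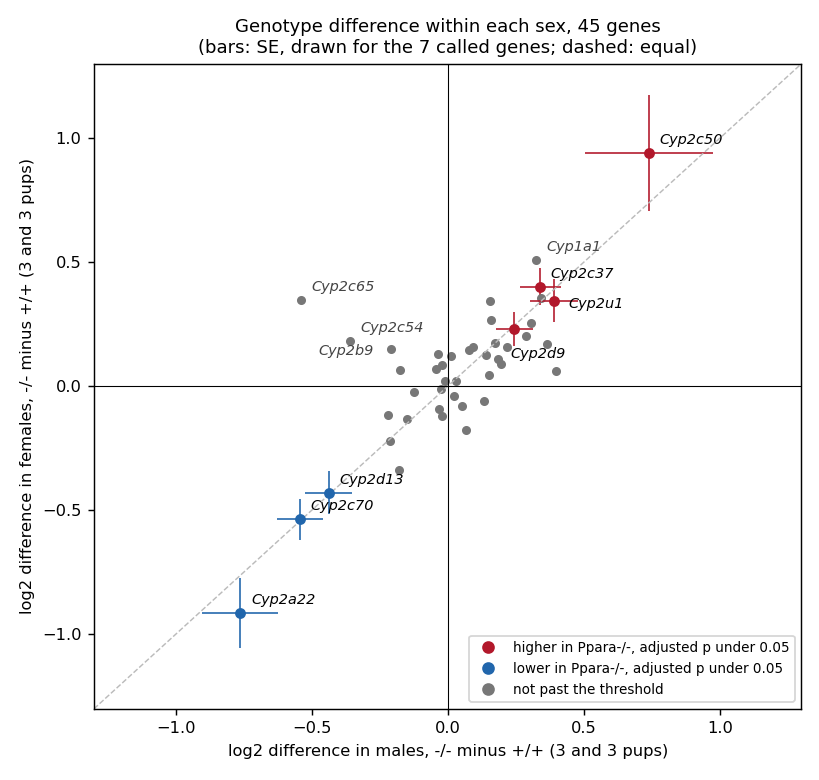
Log2 difference between genotypes in females (y axis) against that in males (x axis) for 45 genes, 3 pups per genotype and sex, with SE bars for the 7 called genes and a dashed line of equality. The called genes lie along the line from *Cyp2a22* (-0.76, -0.91) to *Cyp2c50* (0.74, 0.94), and *Cyp2c65* (-0.54, 0.35), which has 1 *Ppara*+/+ male pup far above the rest, lies farthest from it.

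Single pups were extreme in several members at once. Among the 6 *Ppara*+/+ pups, the female replicate 7 had the highest value in 19 of the 45 members and the female replicate 9 the lowest in 20. How often each pup was extreme over all genes was not counted, so this may not be particular to these members. Without replicate 7, whose array had the lowest weight, the 3 genes that fell stayed called and 8 rose instead of 4, the additions being *Cyp2c68*, *Cyp2j6*, *Cyp2r1* and *Cyp3a11* (0.18, adjusted p = 0.0266, for the last). Without the male *Ppara*+/+ replicate 1, only 2 rose: *Cyp2c50* (0.79, adjusted p = 0.0506) and *Cyp2d9* (0.23, adjusted p = 0.051) were no longer called. *Cyp2d9* was also lost without *Ppara*-/- replicate 5 (0.22, adjusted p = 0.0526) or 11 (0.22, adjusted p = 0.0534). *Cyp2a22*, *Cyp2c37*, *Cyp2c70*, *Cyp2d13* and *Cyp2u1* kept their calls whichever pup was left out. The share of all genes called in each of these fits was not worked out. Whether leaving out a pup changed the calls of the members more than those of other genes was therefore not tested. Among the *Ppara*-/- pups, the male replicate 5 was highest in 11 members and the female replicate 11 lowest in 13.

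**Figure D5:**
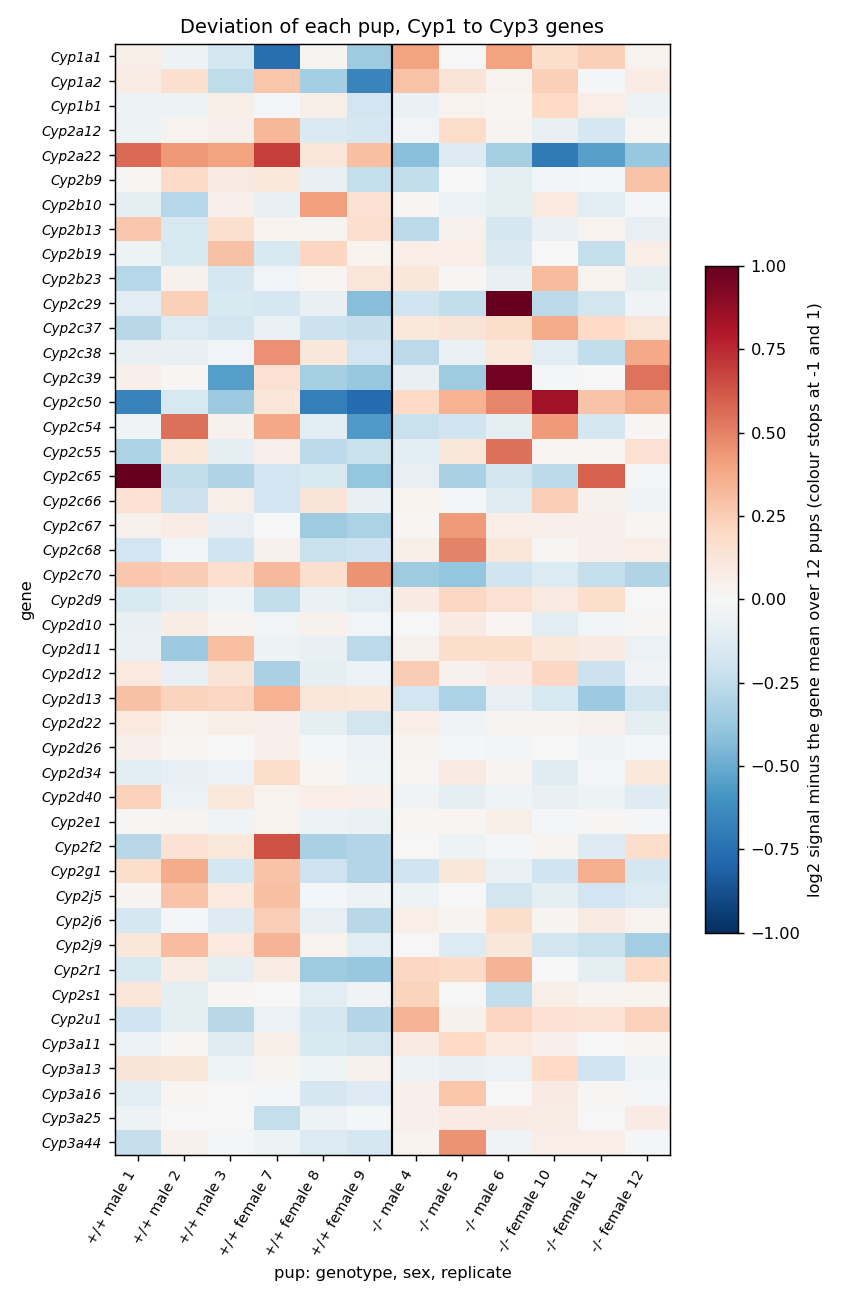
Log2 signal of each pup minus the gene's mean over the 12 pups (colour, which stops at -1 and 1) for 45 genes (rows) and 12 pups (columns, *Ppara*+/+ left of the line). Most pups of the 7 called genes change colour at the line, the column of the *Ppara*+/+ female 7 is red in *Cyp2f2* and blue in *Cyp1a1*, and that of the *Ppara*-/- male 5 is red in *Cyp2c67*, *Cyp2c68* and *Cyp3a44*.

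Of 49 listed electron donors, haem enzymes, receptors and transcription factors that act on these P450 genes, 42 were measured. By limma 3 of them rose and 0 fell, against 1.99% and 1.12% of all genes. At an unadjusted p under 0.05, 2 were lower and 8 higher by limma, and 2 and 9 by exact Mann-Whitney tests. *Ahr*, the aryl hydrocarbon receptor, read 10.44, 10.46 and 10.48 in *Ppara*+/+ livers and 10.57, 10.65 and 10.70 in *Ppara*-/- livers (0.18 ± 0.0325, adjusted p = 0.0108). *Ppargc1a*, a coactivator of nuclear receptors, read 8.60, 9.001 and 9.05 against 9.32, 9.69 and 9.93 (0.75 ± 0.108, adjusted p = 0.00299). *Dbp*, a circadian transcription factor, read 8.14, 8.20 and 8.42 against 8.35, 8.56 and 8.79 (0.33 ± 0.0736, adjusted p = 0.0425), and its groups overlapped. The receptors *Nr1i3* (constitutive androstane receptor) and *Nr1i2* (pregnane X receptor) differed by 0.10 (adjusted p = 0.274) and -0.08 (adjusted p = 0.382), and were chosen after their values were seen. Of 4 measured genes of the aryl hydrocarbon receptor battery, of which *Ahrr* and *Tiparp* are also among the 42, none passed by limma, at an adjusted or an unadjusted p under 0.05, or by Mann-Whitney tests. They were led by *Ahrr* (-0.12, adjusted p = 0.463), *Nqo1* (-0.10, adjusted p = 0.55) and *Tiparp* (0.05, adjusted p = 0.676).

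Enzymes outside the 3 families give the scale of these changes. At an adjusted limma p under 0.05, 1.12% of all genes fell and 1.99% rose. Of 14 measured *Cyp4* genes, 6 fell and 0 rose, led by *Cyp4a14* at -2.65 and *Cyp4a10* at -2.35, so the largest drop among the Cyp1 to Cyp3 genes, -0.84, was smaller on the log2 scale. The others that fell were *Cyp4a31* (-1.64), *Cyp4a12a* (-1.20), *Cyp4a12b* (-1.16) and *Cyp4f15* (-0.23). Of 16 measured P450s of other families, 2 rose, *Cyp51* of sterol synthesis (0.61) and *Cyp8b1* of bile acid synthesis (0.58). *Cyp8b1* and *Cyp2c70* act on the same bile acid pool, and the first rose while the second fell. Of 43 measured conjugating and other phase II enzymes, 2 fell, *Inmt* (-1.76) and *Ugt3a1* (-1.28), and 4 rose, *Gstm2* (0.39), *Gstt3* (0.39), *Mgst2* (0.27) and *Gstp1* (0.26).

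Markers of other cell types and of liver zones were read on the same arrays. All 10 Kupffer cell markers were higher in *Ppara*-/- livers, none past the threshold by limma, and 8 at an unadjusted p under 0.05 and 7 by Mann-Whitney tests (9.27% and 9.28% of all genes), with *Clec4f* at 0.21, *Csf1r* at 0.25 and *C1qb* at 0.18. Their summed signal on the linear scale ran from 11726 to 15519 in *Ppara*+/+ and from 14136 to 15703 in *Ppara*-/- livers. All 7 erythroid markers were lower, none past the threshold (5 at an unadjusted limma p under 0.05 and 2 by Mann-Whitney tests, against 7.89% and 7.58% of all genes), with sums of 24064 to 30649 and 22287 to 28685. Of 9 listed periportal markers 4 were measured, and 3 rose, *Etnppl* (0.75), *Hal* (0.56) and *Cdh1* (0.18). Of 8 pericentral markers *Oat* (0.59) and *Lhpp* (0.47) rose and *Tbx3* (-0.27) fell. At an adjusted limma p under 0.05, 1.99% of all genes rose and 1.12% fell. The paper lists *Hal* and *Oat* among amino acid oxidation genes raised in *Ppara*-/- liver at P2, so they are not neutral zone markers here. Of 3 fetal hepatocyte markers, *Dlk1* (0.36) and *Gpc3* (0.26) rose. No endothelial (8), stellate (6), cholangiocyte (4) or granulocyte (8) marker passed by limma, with 5, 2, 0 and 3 higher at an unadjusted p under 0.05 and 6, 2, 0 and 2 by Mann-Whitney tests. A positive difference was not particular to Kupffer cell markers. It was seen in all 8 endothelial, all 6 stellate, 3 of 4 cholangiocyte and 7 of 8 granulocyte markers, against 8998 of 19938 genes. The part of these markers in the changes of the P450 genes was not tested.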

How the data were processed

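Whole-liver RNA of 12 pups was hybridised to Affymetrix Mouse Gene 1.0 ST arrays, and the deposited values are log2 signals that the authors normalized by RMA. No other normalization was applied here. Precision is limited by the number of arrays, 6 per genotype. Groups came from the genotype and sex labels. Of 35556 probe sets, 21789 name 1 gene, 1621 several and 12146 none. Per gene, the single-gene probe set with the highest mean was kept, and each member had only 1. A linear model with genotype and sex was fitted to all probe sets with limma 3.58.1 in R 4.3.3 (9 residual degrees of freedom, empirical Bayes), with Benjamini-Hochberg adjustment over all of them. Calls needed an adjusted p under 0.05. Interactions came from a fit of 4 groups. Errors are SEs, and intervals are 95% confidence intervals. The members and lists were chosen with earlier results of these data known. Every member may be named: those called and the 2 with the largest change per subfamily get full values, and of the other lists those called and the 3 lowest p. Alternatives were scaling, array weights, filters, exact Mann-Whitney tests and leaving out each pup. Scripts were tested on simulated data. RefSeq tables gave gene order and promoters. Close relatives may cross-hybridise, which was not tested.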

Additional observations from a re-analysis of the deposited data

Results flagged for a closer look

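In 10 of 98 groups of 6 pups, 1 pup lay far from the others by Dixon's test, which flags about 1 in 20 groups by chance. Among *Ppara*-/- livers, the male replicate 5 was the highest in *Cyp2c67* at 10.39, *Cyp2c68* at 11.05, *Cyp3a16* at 11.08 and *Cyp3a44* at 11.63, where the other 5 pups reached 10.03, 10.67, 10.89 and 11.25. The *Ppara*-/- female replicate 10 was the highest in *Cyp2c37* at 12.28 and in *Cyp2c54* at 8.90, against at most 12.11 and 8.49 in the others. The *Ppara*-/- male replicate 6 read 6.41 in *Cyp2c29*, against at most 4.75. *Cyp2c65* was far above the rest in the *Ppara*-/- female replicate 11 at 4.69 and in the *Ppara*+/+ male replicate 1 at 5.68, the others of each genotype reaching 4.08 and 3.95. In *Cyp3a25* the *Ppara*+/+ female replicate 7 was the lowest at 12.16, against 12.35 for the next pup.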

How the results depend on the processing

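*Cyp2a22*, *Cyp2c70* and *Cyp2d13* fell under each alternative to the limma fit, including all leave-one-out fits (3 called in each). Of the count that rose (4), leave-one-out values ran from 2 (without *Ppara*+/+ replicate 1) to 8 (without *Ppara*+/+ replicate 7), array weights gave 6, and a 1.3-fold minimum left 1. Exact Mann-Whitney tests gave 0 lower and 0 higher members after adjustment, since 6 against 6 pups cannot go below p = 0.00216, and 6 and 11 of 45 without it, against 7.58% and 9.28% of all genes. For the partners and regulators the same tests gave 0 higher after adjustment, and 2 lower and 9 higher without it. Leaving out dim probe sets raised their count of 3 to 5 and a 1.3-fold minimum lowered it to 1, with 2 to 4 in leave-one-out fits. For array weights, the dim filter and the leave-one-out fits, the share of all genes called was not worked out. Those counts therefore have no background. *Ppara* itself (-0.89) had an adjusted Mann-Whitney p of 0.0691. Some small or imprecise differences of uncalled members changed sign, among them *Cyp2c29* (0.23, from -0.062 to 0.353 over the alternatives) and *Cyp2c65* (-0.10, from -0.254 to 0.226). *Cyp2a12* (-0.02) was 0.028 with array weights and -0.050 to 0.065 leaving out single pups. *Cyp2f2* (0.01) was -0.0074 after quantile normalization and -0.069 to 0.144 leaving out single pups. *Cyp2g1* (-0.05) was 0.029 with array weights and -0.149 to 0.0145 leaving out single pups, and *Cyp2s1* (0.03) ran from -0.013 to 0.091. Sex and interaction counts stayed at 0 in every fit. No analysis paired by litter was possible, because the labels do not give the litter of each pup. Likeness between pups of a litter is therefore not in the model.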
